A study of Rattus norvegicus with 241 samples.

Results

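Basal cells of normal mammary glands were compared between 3 TGFBRi-treated and 3 vehicle-treated SD rats, all of which bore tumors after NMU (N-nitroso-N-methylurea, an alkylating carcinogen). The drug, abbreviated TGFBRi, was galunisertib, which blocks the kinase activity of the TGFβ type I receptor, TGFBR1. Rats were outbred virgin females dosed from 21 days of age by oral gavage, 2 times a day for 10 days, with 75 mg/kg of TGFBRi or with vehicle, and then received 1 intraperitoneal injection of 50 mg/kg NMU. Glands were collected at day 87, so the drug had been withdrawn for the whole interval. The 6 samples were chosen by their labels (basal cell type, tumor-bearing status, drug or control) from 241 samples in the series. Tumor status was recorded after treatment, so the treated group consisted of the treated rats in which tumors formed. The question was whether TGFBRi given before the carcinogen left a lasting difference in basal cells of these rats. Basal samples of 3 tumor-free TGFBRi-treated rats of the same experiment shared the model, luminal samples of the same 6 rats gave the other epithelial lineage, and basal samples of 8 young SD rats (4 per treatment) collected at day 0, at the end of dosing and with no NMU, gave the early effect.

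Basal cells form the outer layer of mammary ducts and alveoli, contract to expel milk and rest on the basement membrane. TGFβ ligands bind TGFBR2, which activates TGFBR1, and the paired receptors phosphorylate SMAD2 and SMAD3, which carry the signal to the nucleus and restrain epithelial growth. The respiratory chain, which most of the results below concern, passes electrons from NADH and succinate through complexes I to IV of the inner mitochondrial membrane, and ATP synthase uses the proton gradient that they build.

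Each value is a normalised read count, the reads of a gene divided by the size factor of the library. The 6 libraries held 11152495 to 18985027 reads on genes. Sorted cells carried the expected lineage markers, with KRT14 between 110135 and 273670 against 3691 to 8611 in luminal samples of the same rats, and KRT18 between 4495 and 8645 against 40422 to 86488. Transcripts of PTPRC, the pan-leukocyte marker, stood at 20.6 or less in all 6 rats, while those of PECAM1 (endothelium) stood at 143 to 402. Other leukocyte markers read more, with LYZ2 at 113 to 795 and C1QB at 138 to 712. Fibroblast markers were plentiful, with COL1A1 at 9955 to 68173 and DCN at 2700 to 13752. KRT8, a luminal keratin, was plentiful in basal samples too, at 45348 to 72793.

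The TGFBRi libraries stood apart from each other more than the vehicle libraries did, with pairwise Pearson correlations across genes of 0.878 to 0.907 against 0.926 to 0.944, and genes are not independent replicates. At an equal depth of 11152495 reads, 11397, 11963 and 10602 genes were detected in TGFBRi replicates 1 to 3, and 13816, 12607 and 11591 in vehicle replicates 1 to 3 (exact permutation test, two-sided, p = 0.2, where 0.1 is the smallest value 3 against 3 can give). Of 8900 genes with a mean of at least 50, those with at most 1 read numbered 90, 15 and 180 in the TGFBRi libraries and 9, 7 and 30 in the vehicle libraries. TGFBRi replicates 1 and 3 thus lacked more of the transcripts that other libraries held, and the counts of the groups overlapped at replicate 2.

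**Figure D1:**
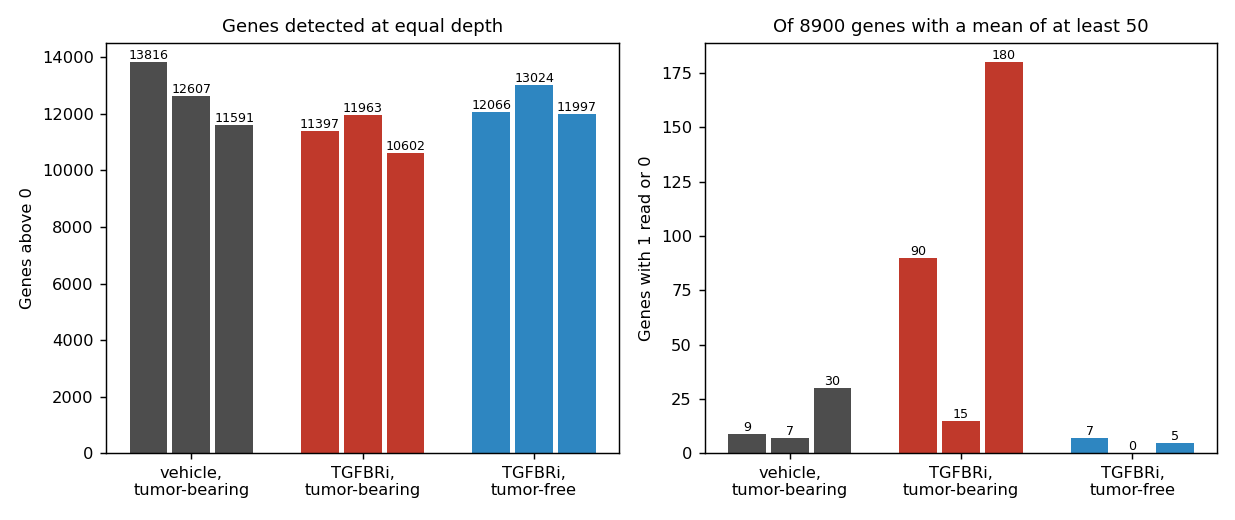
Genes detected after thinning every basal library to 11152495 reads (left) and genes with 1 read or 0 among 8900 genes with a mean of at least 50 (right), 1 bar per rat, replicates 1 to 3 from left to right. TGFBRi replicates 1 and 3 of the tumor-bearing group had 90 and 180 such genes, above the 0 to 30 of the vehicle and tumor-free libraries.

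Expression differed at 174 of 13312 genes between the TGFBRi-treated and vehicle groups (1.31%, limma on log2 of the count plus 1, Benjamini-Hochberg adjusted p of 0.05 or less). Of these DEGs 134 (1.01%) were higher and 40 (0.300%) were lower after TGFBRi, and the 3 rats of each group did not overlap at any of them. Over all genes tested, groups did not overlap at 2893 (21.7%), with TGFBRi higher at 1302 of them (9.78%). The median log2 difference over all genes was -0.25, and it was lower at genes of low level, so each difference below is to be read against that median.

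The calls depended on the model and on every vehicle rat. With the 6 tumor-bearing samples alone 80 genes were higher and 4 lower. With no trend or robust prior 0 were higher and 5 lower. Without vehicle replicate 1, 2 or 3 the count fell to 0, both by limma (1885, 1749 and 2384 genes with an unadjusted p under 0.05) and in edgeR (1713, 1668 and 2119 genes). Without TGFBRi replicate 1 it rose to 1191 genes, and without TGFBRi replicates 2 and 3 it was 111 and 46. The balance of directions by limma moved too, with 568 higher and 623 lower without TGFBRi replicate 1, and 45 higher and 66 lower without TGFBRi replicate 2. In edgeR the same fits gave 670 higher and 374 lower, and 49 higher and 21 lower. All 174 genes kept their direction in each of these fits, which groups without overlap all but fix in advance when a rat is left out.

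The 10 largest rises were led by genes of nucleotide, milk and mitochondrial metabolism, each at several times its vehicle level. DCTPP1, which hydrolyses dCTP and its modified forms, read 91.9, 92 and 50.1 in the vehicle rats and 380, 1547 and 805 in the TGFBRi-treated rats, a log2 difference of 3.36 (SE 0.52, adjusted p = 0.0177). CSN1S1, the milk protein alpha-S1-casein, read 701, 584 and 1209 against 7274, 22405 and 2167, with TGFBRi replicate 2 highest and a log2 difference of 3.16 (SE 0.66, adjusted p = 0.0488). THRSP, a regulator of fatty acid synthesis in fat and lactating gland, read 75.5, 78.3 and 144 against 430, 1904 and 385 (2.83, SE 0.56, adjusted p = 0.0361). Both of the latter were also the ones in which a single TGFBRi rat exceeded the other 2 by the widest margin. RFC4, a subunit of the clamp loader of DNA replication, read 174, 59.7 and 109 against 312, 769 and 1091 (2.60, SE 0.54, adjusted p = 0.0429).

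Genes with less scatter among rats followed. COQ7, which carries out a late hydroxylation in the synthesis of coenzyme Q, the electron carrier of the respiratory chain, read no more than 130 in any vehicle rat and 441, 604 and 729 in the TGFBRi-treated rats (2.28, SE 0.39, adjusted p = 0.0244). GSTM5, a mu class glutathione transferase, read 443, 395 and 428 against 1672, 1790 and 2534 (2.22, SE 0.31, adjusted p = 0.0157). Vehicle rats were nearly equal at both genes and every treated rat lay at least 3 times above them. MGARP, a mitochondrial protein, read 70, 42.1 and 46.8 against 344, 192 and 291 (2.35, SE 0.49, adjusted p = 0.0421). THYN1, a nuclear protein, rose by 2.39 (SE 0.42, adjusted p = 0.0273) and the locus RGD1310769 by 2.26 (SE 0.50, adjusted p = 0.0459).

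Of the 10 largest falls, 5 were of genes with moderate levels in vehicle rats that were at or near 0 in some treated libraries. BCL6B, a transcriptional repressor of the BCL6 family, read 87.8, 139 and 122 in vehicle rats and 0, 2.99 and 0 in TGFBRi-treated rats. In reads, this was 3 in the treated group against 355, a ratio of 0.00943 per normalised library with a 95% exact counting interval of 0.0019 to 0.0278, which covers counting error only. RBM6, an RNA-binding protein, read 187, 77.3 and 130 against 2.66, 0 and 12.1. MERTK, a receptor kinase for the uptake of dying cells, read 144, 163 and 196 against 1.33, 49.9 and 1.10, and the other 2 genes at these levels were EPB41L4A (125, 124 and 136 against 1.33, 24.9 and 3.31) and DIXDC1, a Wnt pathway protein (137, 136 and 182 against 5.33, 5.99 and 32). Fitted log2 differences of these 5 genes ran from -6.18 to -3.74, with adjusted p between 0.0157 and 0.0437, and depend on the pseudocount where a treated library was near 0. In edgeR MERTK missed the threshold, with a log2 difference of -3.21 (adjusted p = 0.13), against -4.73 by limma. The libraries at or near 0 were those of TGFBRi replicates 1 and 3 for MERTK and EPB41L4A, the same libraries that lacked most transcripts above, and the part of that shortfall in these calls was not tested.

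The other 5 genes stayed detected in every treated library. CLIP1, a protein of growing microtubule ends, read 288, 365 and 186 in vehicle rats and 21.3, 77.8 and 45.2 in TGFBRi-treated rats (-2.64, SE 0.48, adjusted p = 0.0274). HDAC4, a class IIa histone deacetylase, read 329, 364 and 565 against 147, 122 and 50.7 (-2.06, SE 0.45, adjusted p = 0.0442). CNOT1, the scaffold of the CCR4-NOT deadenylase, read 339, 273 and 477 against 90.6 to 121 (-1.76, SE 0.35, adjusted p = 0.0374). DDX55, an RNA helicase, fell by 2.49 (SE 0.53, adjusted p = 0.0437). GCLC, the catalytic subunit of the rate-limiting enzyme of glutathione synthesis, read 2415, 2580 and 1422 against 773, 484 and 607 (-1.76, SE 0.32, adjusted p = 0.0274), and had the highest vehicle levels of the 10 genes.

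**Figure D2:**
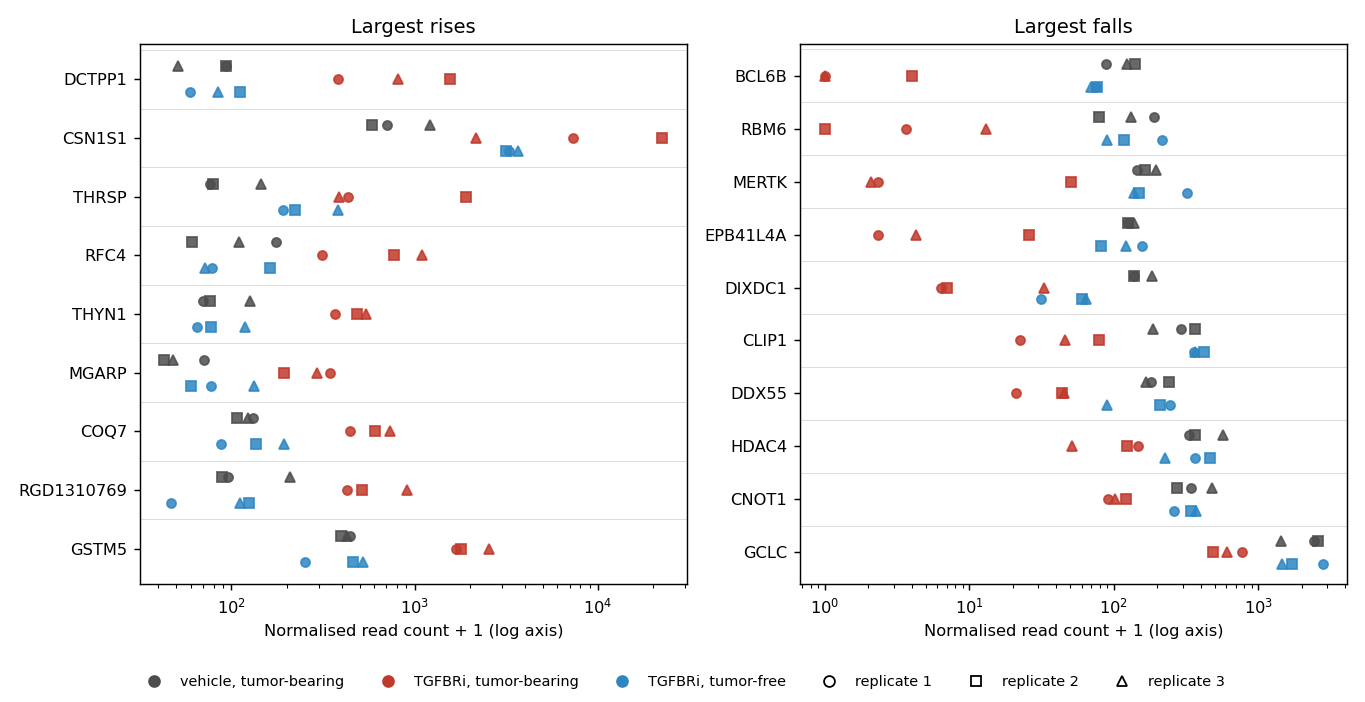
Normalised read count plus 1 (log axis) of genes with the largest rises and falls in basal cells that the text names, 1 point per rat. Treated tumor-bearing rats (red) lay apart from vehicle rats (grey) at each gene, and tumor-free treated rats (blue) overlapped the vehicle rats at some of them, for example 58.6 to 111 at DCTPP1, and lay above them at CSN1S1 and THRSP.

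Respiratory chain and ATP synthase subunits formed the group in which most genes rose. Of 74 nuclear-encoded subunits tested 34 rose and 0 fell, against 1.01% of all genes rising. The group was put together after the values were seen, and its count describes these rats and is no test of the group. The log2 difference was above 0 at 71 subunits with a median of 1.18, against -0.25 over all genes, and 65 did not overlap between groups with TGFBRi higher, against 9.78% of all genes. Summed over the 74 genes, vehicle rats read 269550, 257624 and 221354 and TGFBRi-treated rats 483405, 600433 and 600195, a log2 ratio of 1.17. The lowest treated rat lay well above the highest vehicle rat.

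Start sites of some of these genes hold elements known from promoters of nuclear genes for mitochondrial proteins, and they are printed here because the called subunits share them in part. Promoter sequences from RefSeq (GRCr8, 250 bases before to 50 after the start) matched 10648 of the 13312 genes. CGCATGCG, the core of the palindrome that nuclear respiratory factor 1 binds, stood in 329 of these promoters (3.09%, both strands, which a palindrome reads alike), in 7 of 64 subunits with a promoter (10.9%) and in 5 of the 29 called ones. At 4 of these 5 it began 55 to 96 bases before the start, and at ATP5L 244 bases before it. The 250 bases before the start follow, with every copy of the core in capitals (NDUFA11 has overlapping copies), for the 4 genes, NDUFA11 (chr9:1637364-1637613, plus strand), ATP5G2 (chr7:135678219-135678468, minus strand), ATP5I (chr14:1464610-1464859, plus strand) and ATP5O (chr11:44657484-44657733, minus strand).
NDUFA11: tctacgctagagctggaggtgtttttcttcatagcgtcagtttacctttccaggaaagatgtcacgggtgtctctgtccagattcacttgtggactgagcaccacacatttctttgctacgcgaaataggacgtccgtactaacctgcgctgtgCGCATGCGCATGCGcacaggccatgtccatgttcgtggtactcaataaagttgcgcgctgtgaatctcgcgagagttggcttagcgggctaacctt
ATP5G2: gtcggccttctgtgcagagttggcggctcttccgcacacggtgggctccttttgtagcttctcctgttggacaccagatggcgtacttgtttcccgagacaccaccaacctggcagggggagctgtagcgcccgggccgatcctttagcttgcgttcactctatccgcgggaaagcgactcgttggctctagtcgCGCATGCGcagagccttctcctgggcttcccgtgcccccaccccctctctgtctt
ATP5I: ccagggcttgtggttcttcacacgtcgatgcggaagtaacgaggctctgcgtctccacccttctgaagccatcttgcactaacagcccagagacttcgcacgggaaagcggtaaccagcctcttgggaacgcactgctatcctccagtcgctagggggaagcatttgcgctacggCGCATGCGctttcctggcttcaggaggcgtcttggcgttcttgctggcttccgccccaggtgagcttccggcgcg
ATP5O: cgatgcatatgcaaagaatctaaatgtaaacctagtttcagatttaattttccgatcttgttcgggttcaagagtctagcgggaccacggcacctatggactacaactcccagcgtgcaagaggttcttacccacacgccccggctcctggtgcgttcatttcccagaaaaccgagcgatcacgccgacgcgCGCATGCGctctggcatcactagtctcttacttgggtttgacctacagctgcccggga

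A second element, AAGATGGCG, of the transcription factor YY1, was found in either orientation in 346 promoters (3.25%), in 10 of the 64 subunits (15.6%) and in 6 of the 29 called ones, where it lay 5 to 37 bases after the start. Windows of 30 bases with the element in capitals are given for NDUFA6 (chr7:115750282-115750311), NDUFA9 (chr4:161374140-161374169), NDUFB8 (chr1:253362895-253362924) and NDUFS4 (chr2:47794890-47794919), all on the minus strand of GRCr8. UQCRC1 and ATP5J held both elements and neither was called. A match is a description of the letters and does not show a bound site.
NDUFA6: ttccttagcAAGATGGCGgccgcggccagc
NDUFA9: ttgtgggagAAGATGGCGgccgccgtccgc
NDUFB8: gagaaggtgAAGATGGCGgcgtcccgggct
NDUFS4: gcccacaggAAGATGGCGgcggtctcaatg

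In complex I, which takes electrons from NADH, 16 of 33 subunits rose (median log2 difference 1.21). NDUFA11, an accessory subunit, read 1575, 1607 and 1827 in vehicle rats and 4383, 10608 and 8261 in TGFBRi-treated rats (2.12, SE 0.31, adjusted p = 0.0157). NDUFB9 read 4432, 3400 and 3373 against 11126, 12338 and 13821 (1.74, SE 0.22, adjusted p = 0.0157). Vehicle and treated rats were separated by a wide gap at both. NDUFS8, an iron-sulfur subunit of the electron path, read 2994, 2457 and 2141 against 4496, 8554 and 6957 (1.36, SE 0.27, adjusted p = 0.0361), and NDUFV2, which belongs to the NADH-binding module, read 2390, 1594 and 1435 against 3873, 4126 and 5880 (1.37, SE 0.26, adjusted p = 0.0339). TGFBRi replicate 1 was the lowest of the treated rats at all 4 genes. The subunits whose YY1 element is printed above, NDUFA6, NDUFA9, NDUFB8 and NDUFS4, had log2 differences of 1.62, 1.40, 1.32 and 1.70. NDUFA4, which belongs to complex IV in its assembled form although named for complex I, read 11815, 9096 and 6740 against 26045, 17768 and 34195 and missed the threshold (1.48, adjusted p = 0.0521).

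Among the 4 subunits of complex II, succinate dehydrogenase, 1 rose. SDHD, a membrane anchor, read 1105, 1287 and 1337 in vehicle rats and 1949, 3760 and 4060 in treated rats (1.32, SE 0.28, adjusted p = 0.0437). SDHB and SDHC did not overlap between groups but missed the threshold (0.99 and 0.75, adjusted p = 0.055 and 0.11). The flavoprotein SDHA had a log2 difference of 0.52 with adjusted p = 0.331.

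Complex III, which passes electrons from coenzyme Q to cytochrome c, had 4 of 9 subunits higher, all of them small ones (UQCR10, UQCR11, UQCRH and UQCRQ). UQCR10 read 2559, 3116 and 2646 in vehicle rats and 7768, 9867 and 10645 in treated rats (1.76, SE 0.26, adjusted p = 0.0157). The core subunit UQCRC1 read 14083, 12171 and 9777 against 15826, 25107 and 17026, a smaller difference that missed the threshold (0.67, adjusted p = 0.147). Within complex IV, cytochrome c oxidase, 4 of 13 subunits rose, COX6A1, COX6C, COX7A2 and COX8A. COX7A2 read 1321, 1250 and 1204 against 4908, 3796 and 6786 (2.00, SE 0.29, adjusted p = 0.0157), and COX6A1 read 22003, 17974 and 14252 against 40722, 45132 and 41590 (1.25, SE 0.24, adjusted p = 0.0349).

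ATP synthase had 9 of 15 subunits higher and all 15 above 0 and without overlap, against 1.01%, 38.3% and 9.78% of all genes. ATP5O, the stalk subunit that confers oligomycin sensitivity, read 3156, 2965 and 2830 in vehicle rats and 8666, 13866 and 13290 in treated rats (1.97, SE 0.24, adjusted p = 0.0157). ATP5E, the epsilon subunit, read 3159, 3768 and 3273 against 10796, 15024 and 13004 (1.92, SE 0.29, adjusted p = 0.0157). Vehicle rats were within a narrow band at both. The other ATP synthase subunits whose palindrome core is printed above, ATP5G2 and ATP5I, had log2 differences of 1.18 and 1.60. ATP5B, the catalytic beta subunit, read 43096, 41157 and 41873 against 53544, 80828 and 54755 and missed the threshold (0.56, adjusted p = 0.168).

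**Figure D3:**
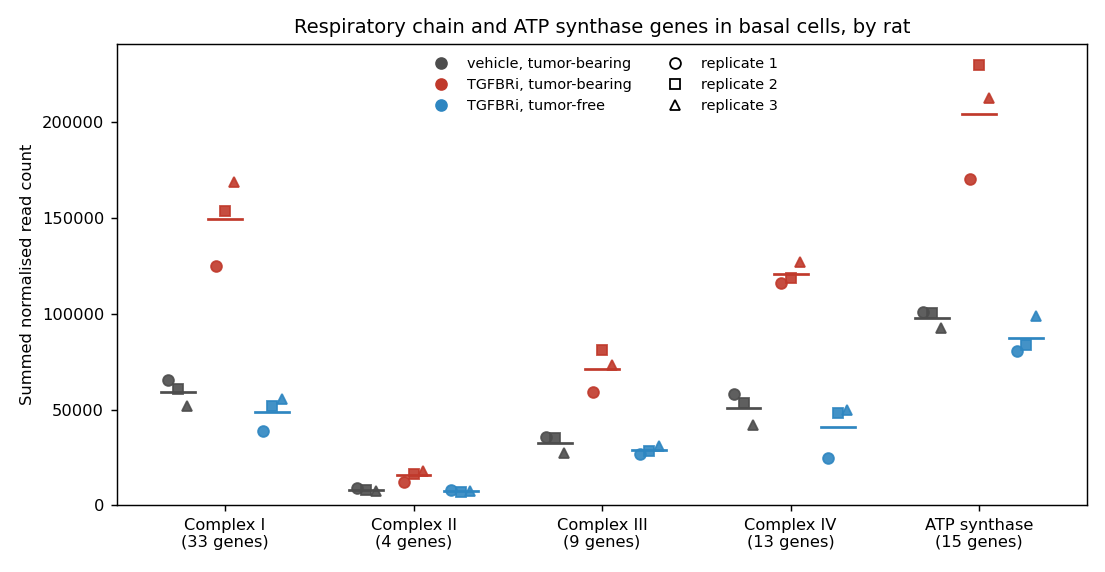
Summed normalised read count of the subunits of each respiratory complex and of ATP synthase in basal cells, 1 point per rat with the group mean as a line. The 3 TGFBRi-treated tumor-bearing rats lay above the vehicle rats in every complex, for example 125069 to 168958 against 51868 to 65684 in complex I, and the tumor-free TGFBRi-treated rats did not.

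Further lists of mitochondrial genes had lower medians than the respiratory chain list. Among 13 TCA cycle enzymes 2 rose, against 1.01% of all genes, with a median of 0.61. SUCLG1, a subunit of succinyl-CoA ligase, was among them (1.45, adjusted p = 0.0274). Of 70 mitochondrial ribosomal proteins 4 rose, MRPL11, MRPL23, MRPL55 and MRPS21, against 1.01% of all genes, with a median of 0.47. ETFB, which feeds electrons from fatty acid oxidation into the chain and was chosen after its values were seen, read 734, 803 and 683 against 2050, 3295 and 3001 (1.88, SE 0.26, adjusted p = 0.0157).

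Cytosolic ribosomal proteins showed a lesser difference with nearly the same breadth. RPS21 was the single one of 75 past the threshold, against 1.01% of all genes higher. It read 4996, 5972 and 5829 in vehicle rats and 16656, 11162 and 18873 in treated rats (1.44, SE 0.32, adjusted p = 0.0469). Of the 75 proteins 73 had a difference above 0, against 38.3% of all genes, with a median of 0.84. Their summed counts were 579117, 562312 and 494622 in vehicle rats and 917993, 871741 and 1148366 in treated rats. Ribosomal proteins have many processed pseudogenes, and the reads that such copies share could be assigned to either. None of 21 histone genes passed although all were above 0 (median 1.08), against 38.3% of all genes above 0. Of 39 proteasome subunits 0 passed (median 0.18). Of 25 subunits of the translocon, the oligosaccharyltransferase and the signal peptidase, which handle proteins entering the endoplasmic reticulum, 5 rose, against 1.01% of all genes. They were DAD1, OST4, SPCS1, SSR4 and TMEM147, with log2 differences of 1.18 to 1.36. These lists too were put together after the values were seen.

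Differences varied with the genomic span of the gene. Over 13111 genes with a genomic span in the RefSeq table, the median log2 difference ran from 0.08 for spans under 5 kb to -0.46 for spans of 100 kb or more. The 134 genes that rose had a median span of 7.77 kb, the 40 that fell 48.5 kb, and the 74 respiratory chain and ATP synthase genes 7.17 kb, against 22.7 kb over all genes. Among genes under 5 kb with a mean log2 level of at least 8, the median was 1.31 for 18 respiratory chain and ATP synthase genes, 0.87 for 58 cytosolic ribosomal proteins and 0.22 for the 684 others. Among genes of 10 to 25 kb it was 1.05 for 16 respiratory chain genes and -0.13 for the 1561 others. By library, the median deviation of 1492 short genes minus that of 1062 long genes was 0.10, 0.85 and 0.33 in TGFBRi replicates 1 to 3, and 0.13, 0.10 and -0.22 in vehicle replicates 1 to 3. The part of gene span in the calls was not tested.

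Few TGFβ pathway genes passed the test, as did few of all genes (1.31%). Of 21 genes tested in a list of ligands, receptors and latent TGFβ binding proteins 1 fell, against 0.300% of all genes. It was TGFBR2, the receptor that binds the ligand and activates TGFBR1. It read 967, 1585 and 1359 in vehicle rats and 623, 250 and 534 in TGFBRi-treated rats (-1.55, SE 0.34, adjusted p = 0.0461). TGFBR1, the drug target, had low counts between 76.4 and 133 in vehicle rats and of 143, 31.9 and 155 in treated rats, which overlapped. TGFB1, a ligand, read 494, 406 and 427 against 80.4 to 301 without overlap and missed the threshold (-1.69, adjusted p = 0.0673). The median over this list was -0.30, against -0.25 over all genes. Its summed counts were 30917, 33459 and 35398 in vehicle rats and 27560, 28292 and 21160 in treated rats, without overlap. The members of highest level were the latent TGFβ binding proteins LTBP4, LTBP2 and LTBP3. Their means were 10047, 8015 and 5312 in vehicle rats and 8826, 5438 and 4337 in treated rats, and each overlapped between groups. The sum is therefore no measure of ligands and receptors alone.

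None of the 19 SMADs and feedback genes passed (median -0.30), with summed counts of 29824, 35665 and 34970 against 27236, 24129 and 22737, also without overlap. Sums of several other lists did not overlap either, among them the Notch pathway and clock genes (lower) and the interferon-stimulated genes (higher). PMEPA1 was the SMAD and feedback gene of highest level, with means of 9973 in vehicle and 4422 in treated rats. None of 30 TGFβ target genes passed (median -0.09). PMEPA1, which TGFβ induces and which restrains its signal, read 7689, 11588 and 10643 in vehicle rats and 6783, 2698 and 3786 in treated rats (-1.26, adjusted p = 0.0578). SMAD3, the effector that carries the signal to DNA, read 1826, 1829 and 1549 against 1731, 449 and 836 (-1.0, adjusted p = 0.17). CTGF, a matricellular protein and a classical target, had a log2 difference of 0.67 (adjusted p = 0.251).

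Among 24 antioxidant genes of the NRF2 pathway 2 rose and 2 fell, against 1.01% and 0.300% of all genes, and the list was not tested as a group. GSTA1, an alpha class glutathione transferase, read 1752, 1647 and 2166 in vehicle rats and 5679, 4219 and 13763 in treated rats (1.91, SE 0.39, adjusted p = 0.0398). MT1, a metallothionein, read 2419, 2601 and 3206 against 6305, 12213 and 9539 (1.73, SE 0.37, adjusted p = 0.0437). Lower were GCLC, given above, and TXNRD1, thioredoxin reductase, which read 11129, 14050 and 15224 against 7953, 5046 and 3303 (-1.39, SE 0.28, adjusted p = 0.0409). HMOX1, heme oxygenase, read 93378, 123930 and 87468 against 73333, 31250 and 20213 (-1.48, adjusted p = 0.0588), and NQO1, a quinone reductase, read 2907, 3758 and 1790 against 802, 1650 and 183 (-2.11, adjusted p = 0.124). The modifier subunit GCLM and the sulfiredoxin SRXN1 were lower without overlap as well (-1.02 and -1.01, adjusted p = 0.0736 and 0.0721). Over the 24 genes 12 were above 0 and 12 below (median -0.03), and the summed counts overlapped between groups. Without overlap 5 were higher and 8 lower, against 1302 and 1591 of all 13312 genes. GSTP1, PRDX1 and SOD2, members of high level, overlapped between groups (0.09, 0.40 and -0.20). Of 19 glutathione transferases, a list put together after the values were seen, 5 rose (against 1.01% of all genes) and 0 fell, GSTA1, GSTM2, GSTM5, MGST1 and MGST3, with a median of 0.90 over the 19. Members of the GSTA and GSTM families are near copies of each other, so their reads may be split between them.

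Genes of basal identity did not pass the test. None of 26 basal keratins and regulators passed (median -0.04), and their summed counts were 663832, 630632 and 654251 in vehicle rats and 825217, 970052 and 833885 in treated rats (exact permutation test p = 0.1). KRT14 read 134040, 110135 and 155610 against 180798, 273670 and 194096 without overlap (0.69, adjusted p = 0.134). SOX10, a transcription factor of basal and progenitor cells that also marks Schwann cells, read 9193, 9921 and 6959 against 5214, 4038 and 2531 (-1.19, adjusted p = 0.0503).

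Of 25 genes of the contractile apparatus 2 rose and 0 fell (median 0.16), against 1.01% and 0.300% of all genes. ACTG2, the smooth muscle gamma actin, read 13560, 12598 and 18142 in vehicle rats and 44877, 35067 and 27519 in treated rats (1.27, SE 0.27, adjusted p = 0.0437). MYL9, a regulatory myosin light chain, read 27950, 29073 and 37957 against 95580, 68617 and 74426 (1.33, SE 0.25, adjusted p = 0.0305). ACTA2, the alpha actin of the same cells, read 46736, 39065 and 48725 against 104665, 26873 and 31273, with the treated rats on both sides of the vehicle rats.

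Milk protein genes scattered widely among treated rats. CSN1S1 was the single one of 24 luminal progenitor and alveolar genes past the threshold (median 0.44), against 1.01% of all genes higher. LALBA, alpha-lactalbumin, read 7966, 4775 and 8113 in vehicle rats and 46506, 31175 and 9048 in treated rats (1.80, adjusted p = 0.0853). CSN3 (kappa-casein) had a log2 difference of 1.38 (adjusted p = 0.0696) and WAP (whey acidic protein) of 2.72 (adjusted p = 0.0717). Treated replicate 3 was the lowest at each of these. Luminal samples of the same rats read between 90544 and 581870 for LALBA. CSN1S1 read 13786, 13066 and 16328 in luminal vehicle samples, below the 22405 of basal TGFBRi replicate 2, and 116019, 65841 and 32810 in luminal TGFBRi samples (2.14, adjusted p = 0.0677). In bulk samples more luminal cells in a sorted fraction and more milk transcript per basal cell cannot be told apart. The luminal keratins KRT8 and KRT18 overlapped between the groups, at 50604 to 61705 in vehicle and 45348 to 72793 in treated rats and at 5530 to 7263 and 4495 to 8645. EPCAM was lower, at 7038 to 11187 in vehicle and 4827 to 6545 in treated rats (adjusted p = 0.255). The summed counts of 24 mature luminal genes were 27128, 26739 and 25266 in vehicle rats and 36251, 31940 and 52357 in treated rats (exact permutation test p = 0.1). By gene, 16 of 23 tested were below 0 (median -0.24) and none passed. The members of highest level, S100A6 (means of 10072 in vehicle and 17670 in treated rats) and PTN (5248 and 11620), overlapped between groups.

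In the remaining lists few genes passed, as over all genes (1.31%, with 0.300% lower). WNT5B, a non-canonical Wnt ligand, read 1365, 1150 and 1289 in vehicle rats and 650, 457 and 284 in treated rats (-1.53, SE 0.30, adjusted p = 0.0349) and was the single one of 35 Wnt pathway genes. ANP32E, a chaperone of the histone variant H2A.Z, fell by 1.35 (SE 0.29, adjusted p = 0.0437) as the single one of 50 G2/M genes. None of 24 Notch pathway genes passed (median -0.65). HEY2, a Notch-induced repressor of low level, read 117, 37.2 and 29.6 against 0, 4.99 and 0 (adjusted p = 0.0508), with 0 in TGFBRi replicates 1 and 3, the libraries that lacked most transcripts. Among Notch genes of higher level, HES1, DLL1 and NRARP overlapped between groups (-0.20, -0.57 and 0.49). NUMBL was lower without overlap (-1.42, adjusted p = 0.0635). None of 15 clock genes (median -0.81) or of 22 chromatin methylation enzymes (median -0.62) passed.

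Genes of other cell types gave no single count beyond THRSP. Summed counts of 18 fibroblast markers were 191741, 409004 and 87740 in vehicle rats and 359654, 170648 and 154979 in treated rats (exact permutation test p = 1), so their level varied among rats of each group. The 27 leukocyte markers summed to 6579, 9464 and 6841 against 7900, 13185 and 11752 (exact permutation test p = 0.2). Tumor-free replicate 2, which lent its spread to the limma model, read 207192 over them, against 9458 and 9869 in tumor-free replicates 1 and 3. That spread limits calls of leukocyte genes, with an SE of 1.44 for LYZ2 and 1.34 for RT1-DA. Endothelial markers were below 0 at 17 of 18 (median -0.50), against 8210 of all 13312 genes (median -0.25), with none past the threshold. Of 15 lists of cell type markers summed, 3 reached the smallest p of 0.1, the basal keratins, the mature luminal genes and the Schwann cell markers, the last of which include SOX10.

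**Figure D4:**
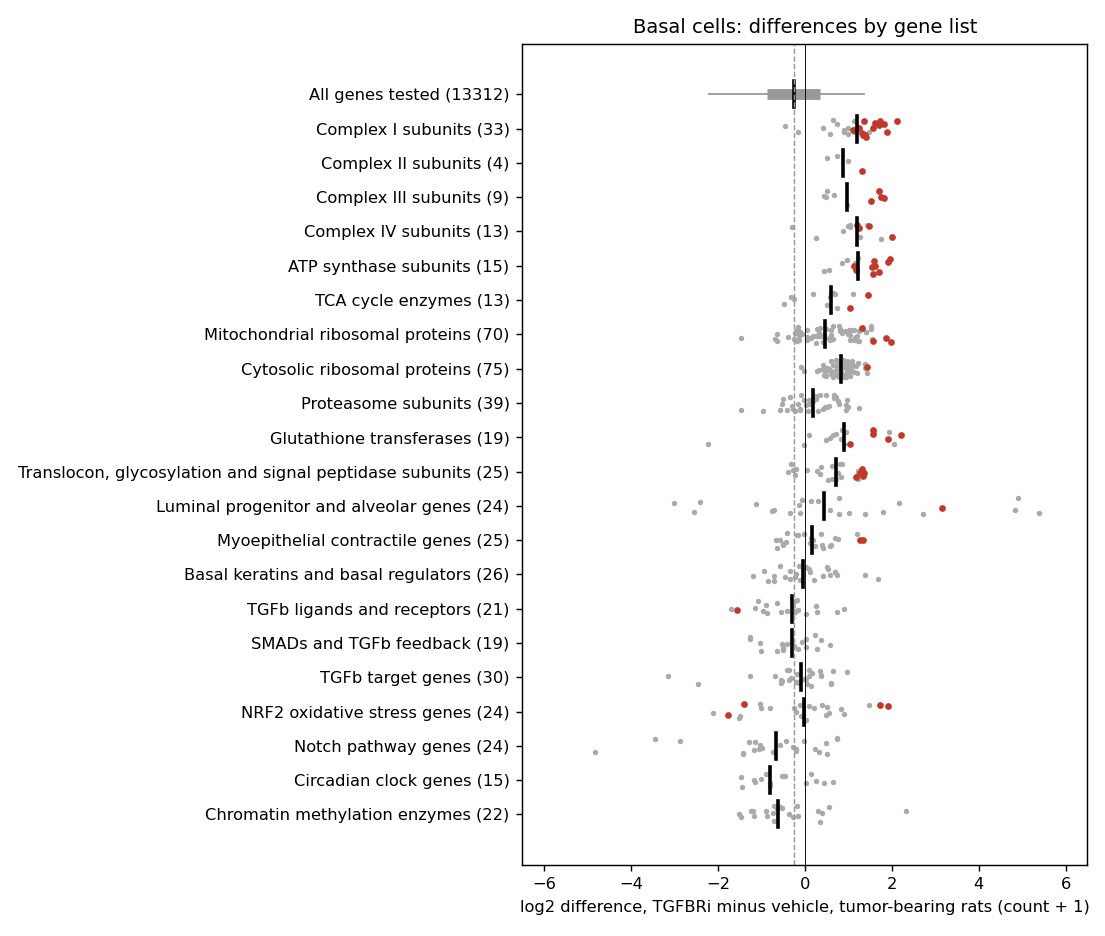
Log2 difference (TGFBRi minus vehicle, tumor-bearing rats) of each gene by list, with DEGs in red, other genes in grey and the list median as a black bar. For all genes the thick line spans the interquartile range and the thin line the 5th to 95th percentile, and the dashed line marks their median of -0.25. Medians of the 5 respiratory lists, 0.87 to 1.22, lay to the right of the other lists plotted, apart from that of the glutathione transferases (0.90), and the number of genes is in brackets. The histone genes, with a median of 1.08, were not plotted.

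Tumor-free TGFBRi-treated rats were compared with both tumor-bearing groups. By limma 0 of 13312 genes (0.00%) differed between them and vehicle rats, with 163 genes at an unadjusted p below 0.05. This comparison shares its vehicle samples with that of the tumor-bearing treated rats. Their summed respiratory chain counts were 179053, 218585 and 242379. Tested directly, in a comparison that shares the treated tumor-bearing samples on which the respiratory chain list was put together, tumor-bearing and tumor-free TGFBRi-treated rats differed at 743 genes (5.58%), of which 482 (3.62%) were higher in tumor-bearing rats, among them 52 of the 74 respiratory chain and ATP synthase genes. DCTPP1 read 58.6, 111 and 83.7 in tumor-free rats (adjusted p = 0.00609 against tumor-bearing treated rats) and ATP5O read 1934, 2794 and 2669 (adjusted p = 0.0017). Of the genes with the largest changes, CSN1S1, THRSP, DIXDC1 and MGARP did not pass this test (adjusted p = 0.358, 0.142, 0.115 and 0.0623). CSN1S1 read 3267, 3141 and 3677 in tumor-free rats, above every vehicle rat, and THRSP 190, 221 and 381, between the groups. DIXDC1 read 30.1, 58.9 and 63.1, below every vehicle rat. Tumor-free replicate 2 held leukocyte transcripts, with 207192 over the leukocyte markers.

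In luminal cells of the same 6 rats the median difference of the respiratory chain genes had the opposite sign, with vehicle replicates 1 and 2 far above every other rat. Summed counts were 2199462, 1270220 and 281038 in vehicle replicates 1 to 3 and 373788, 488447 and 211534 in TGFBRi replicates 1 to 3, and the median log2 difference of the 74 genes was -1.33 with 59 below 0, against a median of -0.26 over all genes, of which 39.9% were above 0. Luminal vehicle replicates 1 and 2 stood far above replicate 3, so that treated and vehicle rats overlapped. TGFBRi replicates 1 and 2 read above vehicle replicate 3, and TGFBRi replicate 3 below it. The normalised value of 1 read was 4.003 and 2.157 in vehicle replicates 1 and 2. It was 0.8643 in vehicle replicate 3 and 0.8196 to 1.337 after TGFBRi. Cytosolic ribosomal proteins summed to 5906622, 4317688 and 943565 in vehicle replicates 1 to 3 and to 518461 to 1386291 in treated rats. The part of these libraries in the sign was not tested. The luminal comparison gave 30 of 14128 genes (0.212%). The test of the basal effect minus the luminal effect gave 0 of 14312 genes by limma on the differences within rats (0.00%, with 2098 genes under an unadjusted p of 0.05) and 711 by edgeR with rat as a block (4.97%). Of the latter 432 (3.02%) had the more positive effect in basal cells, including 43 respiratory chain and ATP synthase genes. That list was put together on these basal samples, so the count of 43 is no separate test of it. The count also uses luminal vehicle replicates 1 and 2. Without vehicle replicate 3 limma gave 540 genes, and without vehicle replicate 1 or 2 it gave 0.

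At day 0, 0 of 12571 genes (0.00%) passed by limma, with 494 at an unadjusted p below 0.05. Respiratory chain genes had a median log2 difference of -0.29 with 71 of 74 below 0, against -0.02 over all genes, and their summed counts were 181962 to 193982 in 4 vehicle rats and 129158 to 210346 in 4 treated rats. The effect at day 87 exceeded that at day 0 or fell short of it at 545 of 13517 genes (4.03%), 389 higher (2.88%) and 156 lower (1.15%), and 52 of the 74 respiratory chain and ATP synthase genes were among the higher. That list, ATP5O and TGFBR2 were chosen on the same day 87 samples, so their differences follow in part from that choice. For ATP5O the effects differed by 2.34 (SE 0.30, adjusted p = 0.00131) and for TGFBR2 by -1.75 (SE 0.40, adjusted p = 0.0249). Leaving out single rats moved the count of genes between 277, without vehicle replicate 2, and 1744, without TGFBRi replicate 1, and it was 339 without vehicle replicate 1. Age, NMU, time since dosing and selection for tumor-bearing rats differ together between these experiments and cannot be told apart.

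**Figure D5:**
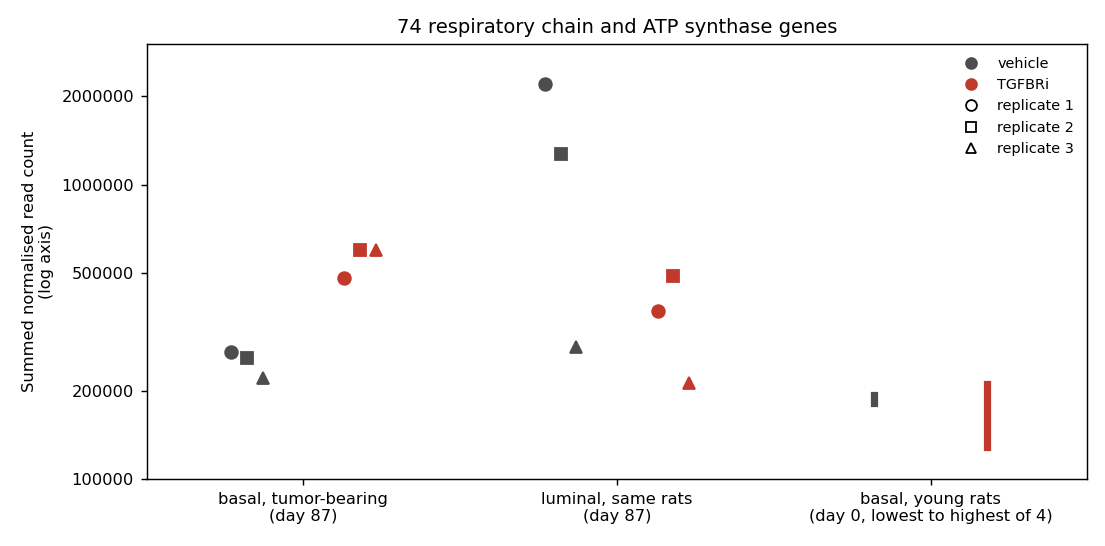
Summed normalised read count (log axis) of 74 respiratory chain and ATP synthase genes, with 1 point per rat at day 87 and a bar from the lowest to the highest of 4 rats at day 0. TGFBRi-treated rats lay above vehicle rats in basal cells (483405 to 600433 against 221354 to 269550), overlapped them in luminal cells of the same rats and overlapped them in basal cells at day 0.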

How the data were processed

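Sorted basal cells (CD24+CD29high within CD31-CD45- cells) were profiled from less than 10 ng of RNA with the SMARTer v4 kit and 75-base single-end reads. The authors aligned reads with STAR 2.5.1b to rn6, counted them per UCSC gene without strand with HTSeq, and deposited DESeq2 1.30.1 normalised counts by gene symbol, a signal per gene in each sample. Reads of a gene and of an overlapping antisense gene therefore cannot be told apart. Reads were recovered from the deposited signal: 100% of 423113 values above 0 were whole multiples of the value of 1 read, at a tolerance of 0.001, and size factors computed over the 34 SD basal and luminal samples matched the deposited ones within 0.000%, so these were scaled together. Here log2(value + 1) was compared by limma 3.58.1 (trended, robust; R 4.3.3) in 1 model of the 9 basal samples of NMU-treated rats, for genes with a summed value of 10 or more over these samples. Effects were compared between lineages by limma on differences within rats, and between days by a contrast of contrasts. edgeR 4.0.16 and DESeq2 1.42.0 on recovered reads, other pseudocounts, filters and scalings, and leaving out each rat, were the alternatives. Scripts were tested on simulated data. Named genes were the 10 per direction with the largest changes among DEGs averaging 50 or more with no overlap between groups, DEGs of the lists with 2 to 4 of their highest or defining members, and sort markers. Others are marked, and some genes that met these rules are not reported here. The members and lists were chosen with earlier results of these data known. Each group holds 3 separate rats.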

Additional observations from a re-analysis of the deposited data

Results flagged for a closer look

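Effects that differed between day 87 and day 0 were tested by the difference of the 2 effects (limma, adjusted p of 0.05 or less), which gave 545 genes. The genes and the list below were chosen on the same day 87 samples, so large differences follow in part from that choice. Among the rises, the difference was 4.17 on the log2 scale for DCTPP1, 2.93 for RFC4, 3.12 for THYN1, 2.45 for MGARP, 2.72 for COQ7, 2.69 for RGD1310769 and 2.56 for GSTM5. Among the falls it was -8.11 for BCL6B, -5.33 for RBM6, -5.28 for MERTK, -4.32 for EPB41L4A, -3.95 for DIXDC1, -3.05 for CLIP1, -2.79 for DDX55, -2.16 for HDAC4, -2.11 for CNOT1, -2.07 for GCLC and -1.75 for TGFBR2. The respiratory chain and ATP synthase genes tested singly gave 2.34 for ATP5O, 2.52 for NDUFA11, 2.24 for COX7A2, 2.11 for UQCR10 and 1.63 for SDHD, and 52 of the 74 genes had the higher effect at day 87. BCL6B read 0 to 17.3 in vehicle rats at day 0, so its difference depends on the pseudocount.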

How the results depend on the processing

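Each of the 174 DEGs kept its direction in every alternative, which the lack of overlap all but fixed in advance, but the count moved. It was 84 with the 6 tumor-bearing samples alone (80 higher), 266 by edgeR (226 higher), 1029 by DESeq2 (680 higher), 81 with no filter on low values and 5 with no trend or robust prior (0 higher). Leaving out 1 rat gave 0 to 1191 DEGs by limma. The share of DEGs that were higher was 77%, against 66.1% by DESeq2, 85% by edgeR, 95.2% with the 6 samples alone and 87.5% with medians set to 0. Without TGFBRi replicates 1, 2 and 3 it was 47.7%, 40.5% and 58.7% by limma, and by edgeR 64.2%, 70% and 81.3%. Alternatives chosen after seeing the data were setting the median of each library equal (377), thinning to equal depth (223) and edgeR without each rat (0 without each vehicle rat, and 1044, 70 and 91 without TGFBRi replicates 1, 2 and 3). Respiratory chain and ATP synthase genes numbered 0 to 55 DEGs over these settings, with a median log2 difference of 1.13 to 1.41; by limma they were 0 without each vehicle rat and 50, 16 and 11 without TGFBRi replicates 1, 2 and 3. The basal minus luminal count, 0 by limma, was 711 by edgeR with a replicate block by rat and 0 to 540 without single rats. The day 87 minus day 0 count ran from 277 to 1744 without single rats. No paired analysis was possible between treatment groups because replicate numbers only name the rats. Means of 3 rats and low read counts limit genes near 0.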
